A study of Homo sapiens with 8 samples.

Results

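The classical and desmosomal cadherin loci were examined in lists of chromatin sites that changed when human embryonic stem cells became surface ectoderm. The cadherin genes were chosen with earlier results of these data known, and the sites by position alone. Every listed site was taken whose centre lay in 1 of 3 intervals of the hg19 genome. These were around CDH1 and CDH3, around CDH2, and around the desmocollin and desmoglein cluster with DSC2, DSC3, DSG1, DSG2 and DSG3. There were 21 such sites among the 14191 listed over the genome. Of these, 13 belonged to the list that its name gives as opened by the morphogens ("opened sites"), and 8 to the list of sites that morphogens open and p63 closes ("p63-closed sites"). The opened list held 57.5% of all listed sites and the p63-closed list 42.5%.

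The series profiled accessible chromatin by ATAC-seq, in which the transposase Tn5 cuts and tags open DNA, in 8 samples of the H9 embryonic stem cell line, in 4 groups of 2. Wild-type H9 cells were sampled at day 0, without morphogens, and at day 7 of culture with 1 uM retinoic acid (RA) and 5 ng/ml BMP4. H9 cells of genotype p63-/- were sampled at day 7 of the same RA and BMP4 culture. A TetO:Tp63+/- line, named p63GOF, was sampled at day 0 after 2 days of doxycycline at 2 ug/ml. The labels attach the opened list to wild-type cells at day 0 and day 7, and the p63-closed list to wild-type and p63-/- cells at day 7. No list was analysed for the p63GOF line, and the sources used here do not say whether a genotype rests on 1 clone. The lists hold the position of each site and no signal, so depth, replicate spread and fold change are unknown, and the labelled cell types could not be checked against marker genes. All intervals below are exact at 95% and cover counting error only.

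Cadherins are calcium-dependent adhesion proteins that hold neighbouring cells together. Classical cadherins build adherens junctions linked to actin: CDH1 encodes E-cadherin of epithelia and of pluripotent cells, CDH3 encodes P-cadherin of basal epithelial layers, and CDH2 encodes N-cadherin of neural and mesenchymal cells. Desmocollins and desmogleins build desmosomes linked to keratin filaments: DSG2 and DSC2 are found in simple epithelia and heart, DSG3 and DSC3 in basal layers of stratified epithelia, and DSG1 and DSC1 in the upper layers of epidermis. The p63 protein is a relative of p53 that binds DNA, and stratified epithelia do not form without it.

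In the RefSeq gene table, which is on GRCh38.p14, CDH3 and CDH1 are neighbours on chromosome 16, between ZFP90 and TANGO6. On chromosome 18 CDH2 lies between CHST9 and DSC3, and the cluster runs DSC3, DSC2, DSC1, DSG1, DSG4, DSG3 and DSG2, followed by TTR. CDH2 and the desmocollins are on the minus strand, and the desmogleins with a promoter entry on the plus strand, so that DSC1 and DSG1, neighbours in the middle of the cluster, point away from each other. The sites are on hg19 and no annotation of that build was used, so no site is assigned to a gene, exon, intron or promoter. Each result belongs to an interval, which also holds other genes.

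Of the 10 cadherin genes looked for, 7 had promoters in the RefSeq table, with 9 promoters among them. These were CDH2, DSC3, DSC2, DSC1, DSG1, DSG3 and DSG2. CDH1, CDH3 and DSG4 had none there. Upstream sequence is shown for desmoglein and desmocollin genes of the cluster because that interval held the most opened sites of the 3. Each sequence is the 250 bases before the transcription start, 5′ to 3′ on the gene's strand, from RefSeq on GRCh38.p14. Whether a listed site covers any of them was not determined.

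The first pair, DSG1 at chr18:31317910-31318159 (plus strand) and DSG3 at chr18:31447491-31447740 (plus strand), is shown because it held the longest stretch common to promoters of different genes here. Capitals mark that stretch.
DSG1: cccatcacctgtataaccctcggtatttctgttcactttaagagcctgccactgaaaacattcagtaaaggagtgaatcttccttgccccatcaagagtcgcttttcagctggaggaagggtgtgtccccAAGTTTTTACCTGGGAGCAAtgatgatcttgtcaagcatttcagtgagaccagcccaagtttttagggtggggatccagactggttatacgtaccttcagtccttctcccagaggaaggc
DSG3: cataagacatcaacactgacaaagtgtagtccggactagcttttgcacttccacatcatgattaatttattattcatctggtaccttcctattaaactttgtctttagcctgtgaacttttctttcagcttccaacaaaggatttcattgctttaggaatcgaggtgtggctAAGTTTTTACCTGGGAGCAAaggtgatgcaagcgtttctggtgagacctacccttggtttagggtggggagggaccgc
The stretch is 20 bases long, from -120 to -101 before the DSG1 start and from -78 to -59 before the DSG3 start, counted back from the start. It occurred in 2 of 35116 promoters of the table, those of DSG1 and DSG3. A second stretch of 13 bases, tttagggtgggga, lay at -59 to -47 in DSG1 and at -21 to -9 in DSG3, and occurred in 3 promoters of the table. Among 34 pairs of promoters from different cadherin genes, the next longest common stretch was 12 bases, between CDH2 and DSG3, and the median was 8. The comparison was chosen after the sequences had been seen.

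The second pair, DSG2 at chr18:31497927-31498176 (plus strand) and the outer start of DSC2 at chr18:31102422-31102671 (minus strand), is shown because these promoters held both of the next motifs searched. Capitals mark CACCTG on either strand, an E-box of the kind bound by SNAI and ZEB repressors, and GCCNNNGGC, a letter pattern of TFAP2 factors that reads the same on both strands.
DSG2: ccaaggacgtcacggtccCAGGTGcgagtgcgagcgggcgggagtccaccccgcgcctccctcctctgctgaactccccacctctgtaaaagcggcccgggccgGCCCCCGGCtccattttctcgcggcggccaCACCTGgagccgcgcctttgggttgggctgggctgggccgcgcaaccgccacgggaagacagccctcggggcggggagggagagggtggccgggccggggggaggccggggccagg
DSC2: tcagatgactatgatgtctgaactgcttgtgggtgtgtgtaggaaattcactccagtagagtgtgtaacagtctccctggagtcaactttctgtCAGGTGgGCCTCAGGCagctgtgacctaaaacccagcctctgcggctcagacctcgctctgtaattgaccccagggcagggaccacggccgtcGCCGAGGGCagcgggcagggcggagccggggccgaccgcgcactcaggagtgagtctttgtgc
DSG2 held CACCTG at -116 to -111, its reverse complement at -232 to -227, and a TFAP2 pattern at -146 to -138. DSC2 held the reverse complement at -156 to -151 and TFAP2 patterns at -149 to -141 and at -63 to -55.

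**Figure D1:**
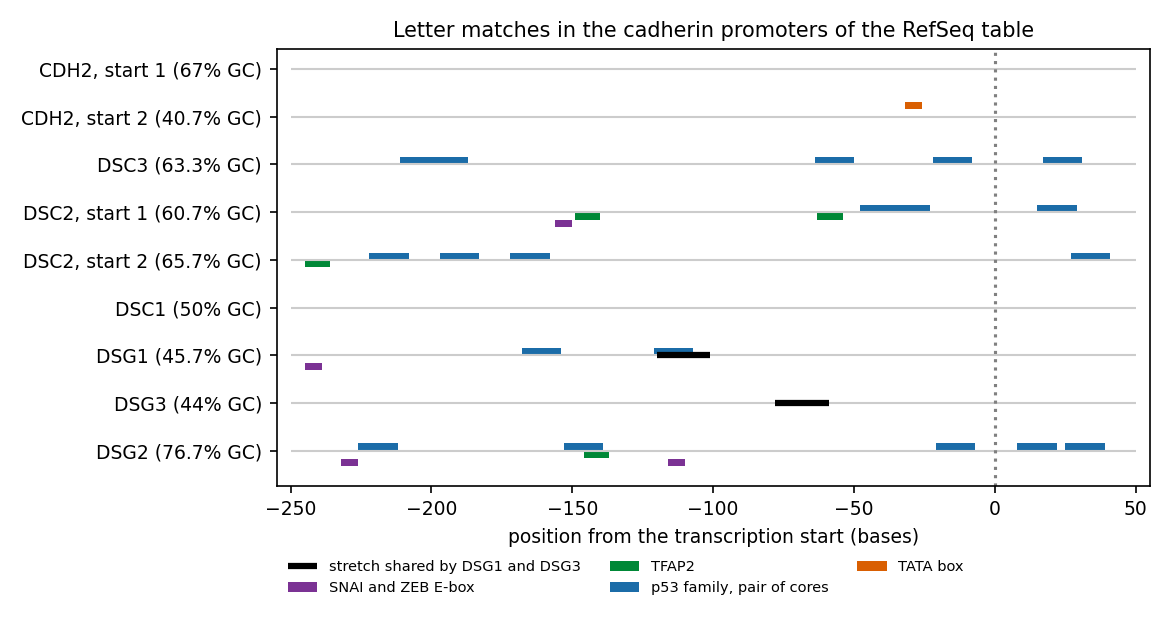
Matches of fixed letter patterns in the 9 cadherin promoters of the RefSeq table. The x axis is the position from the transcription start in bases, each line is 1 promoter with its GC content, coloured bars are matches and black bars the stretch of 20 bases shared by DSG1 and DSG3. The start 1 of CDH2 and the DSC1 and DSG3 promoters hold no pattern match.

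Over the 9 cadherin promoters, counting the 250 bases before and 50 after each start, CACCTG was found in 3, against 20.6% of the 35116 promoters of the table, and GCCNNNGGC in 3, against 23.2%. A loose p53-family pattern, CNNG followed by 6 bases and another CNNG, reads the same on both strands and was found in 5, against 74.0% of all promoters. Its matches can overlap each other, and 1 of them, at -121 to -108 of DSG1, overlaps the shared stretch. DSG3 held no match of the p53-family pattern. The GRHL pattern AACCNGTT (1.73% of all promoters) and the retinoic acid receptor repeat, AGGTCA again after AGGTCA with 5 bases between (0.00570%), were found in none of the 9. TATAAA, found in 11.5% of all promoters, occurred at -32 to -27 of the inner CDH2 start. GC content ran from 40.7% at that CDH2 start to 76.7% in DSG2, with a median of 58.7% over all promoters. DSG1 (45.7%), DSG3 (44%) and DSC1 (50%) were below that median, and DSC2 (60.7% and 65.7% at its starts), DSC3 (63.3%), the outer CDH2 start (67%) and DSG2 were above it. DSG2 held 36 CpG dinucleotides and DSC1 held 2.

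The desmosomal interval, chromosome 18 from 28300001 to 29400000, held 10 listed sites, 7 opened and 3 p63-closed. The opened sites formed a block from 28736543 to 29094026, with 356 kb between the centres of its first and last site, and 1 p63-closed site lay inside it, with 1 on either side. The first opened site of the block, from 28736543 to 28738127, was 1585 bp wide. It was followed by the pair at 28820882 to 28822901 (2020 bp) and 28841396 to 28842634 (1239 bp), whose centres were 20.1 kb apart. The opened site at 28979307 to 28980616 (1310 bp) stood alone, 86.3 kb from the next.

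The last 3 opened sites of the desmosomal interval lay within a short stretch. Those from 29065670 to 29066817 (1148 bp) and from 29067159 to 29068252 (1094 bp) were separated by 341 bp and carried consecutive numbers in their names. The numbers are read here as entries in a catalogue of regions. These 2 sites are 1 of 2 such adjoining pairs among the 18 neighbouring pairs that the 21 sites form. In the whole series 384 of 14168 neighbouring pairs had consecutive numbers, and 149 of the 384 had both sites opened. The third, from 29092168 to 29094026 (1859 bp), was centred 25.4 kb further on.

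The 3 p63-closed sites of the desmosomal interval were far from each other. They lay at 28413262 to 28414769 (1508 bp), 28876613 to 28877793 (1181 bp) and 29299088 to 29300500 (1413 bp), and their centres spanned 886 kb. The middle one lay between opened sites, 35.2 kb from the nearer. The outer ones were 323 kb below the first opened site and 207 kb above the last. In genome order the interval held 1 p63-closed, 3 opened, 1 p63-closed, 4 opened and 1 p63-closed site.

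The CDH2 interval, chromosome 18 from 25000001 to 26400000, held 9 listed sites, 5 opened and 4 p63-closed. Opened sites lay in the middle of the interval and most p63-closed sites in its upper part. The opened sites ran from 25501042 to 25738776, with 236 kb between the centres of the first and last and 1 p63-closed site among them, and the other 3 p63-closed sites all lay above the last opened site. In genome order the opened sites were 2693, 1025, 1395, 1929 and 885 bp wide. The first, at 25501042 to 25503734, was the widest opened site of the 21, and the last, at 25737892 to 25738776, the narrowest. The second lay at 25547809 to 25548833.

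The opened sites at 25657789 to 25659183 and 25659347 to 25661275 in the CDH2 interval were 163 bp apart and are the other pair with consecutive catalogue numbers. The p63-closed site among the opened ones, at 25589186 to 25590772 (1587 bp), was 41.7 kb from the nearest opened site. Above the opened sites, p63-closed sites followed at 25930200 to 25932084 (1885 bp), 26110023 to 26111573 (1551 bp) and 26269525 to 26273404 (3880 bp), at distances of 193, 180 and 161 kb each from the site before. The last of them was the widest p63-closed site on chromosome 18. Only 29 of the 6037 p63-closed sites in the genome were wider, and it lay 533 kb from the nearest opened site.

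The interval of CDH1 and CDH3, chromosome 16 from 68400001 to 69100000, held 2 listed sites, 1 of each list. The opened site, from 68689513 to 68691674, was 2162 bp wide, wider than 78.6% of opened sites. The p63-closed site, from 69032199 to 69033579, was 1381 bp wide and 342 kb away. Both were isolated: the nearest other opened site was 748 kb from the former, and the nearest other p63-closed site 2020 kb from the latter.

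**Figure D2:**
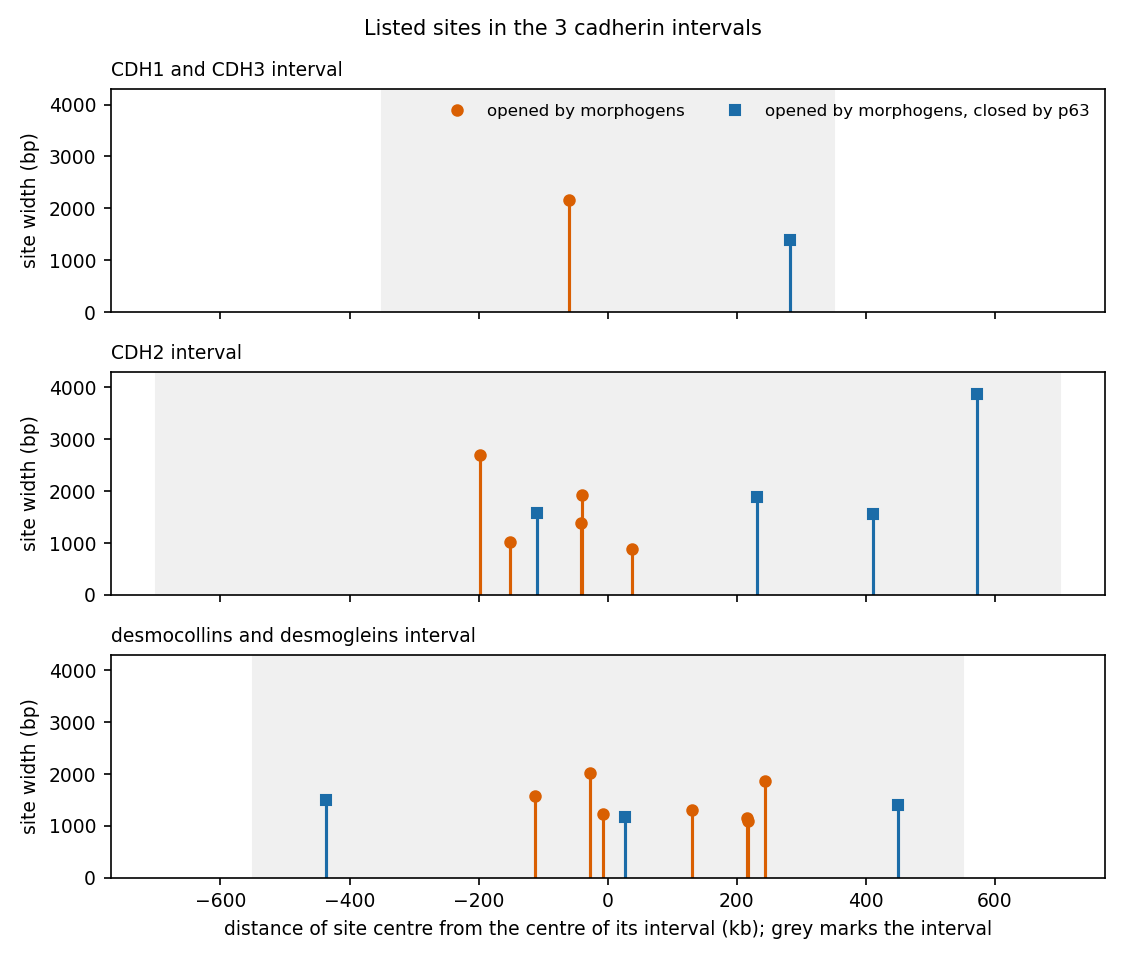
Listed sites of the 3 cadherin intervals. The x axis is the distance of each site's centre from the centre of its interval in kb, the height is the site's width in bp, circles are opened and squares p63-closed sites, and grey marks the interval. Opened sites lie together in the CDH2 and desmosomal intervals, and 3 of the 4 p63-closed sites of the CDH2 interval lie to their right.

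The ends of the intervals were set around the genes, and few listed sites lay near them. The closest outside site was an opened one at 28279120 to 28280212, 20.3 kb below the desmosomal interval, whose first site inside was 114 kb from that end. At the other 5 ends the nearest outside site was 338 to 614 kb away, and the nearest inside site 67.1 to 502 kb. Between the CDH2 and desmosomal intervals, a stretch of 1.90 Mb held 4 opened and 1 p63-closed site.

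The next comparison asked whether cadherin intervals carry more listed sites than other stretches of the genome. The desmosomal interval had 6.36 opened sites per Mb (95% Poisson interval 2.56 to 13.1), the CDH2 interval 3.57 (1.16 to 8.33) and the CDH1 and CDH3 interval 1.43 (0.0362 to 7.96). The opened list as a whole had 2.79 per Mb, chromosome 18 had 3.62, and chromosome 16, which holds CDH1 and CDH3, had 2.09. Each of the 3 counting intervals includes the density of the whole list, so none of the differences exceeded counting error. For p63-closed sites the densities were 2.73 per Mb (0.562 to 7.97) in the desmosomal interval, 2.86 (0.778 to 7.32) in the CDH2 interval and 1.43 (0.0362 to 7.96) around CDH1 and CDH3, against 2.06 in the whole list. Chromosome 18 had 1.92 p63-closed sites per Mb and chromosome 16 had 1.31. The counting intervals for p63-closed sites also include the whole-list value.

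Windows of the same width over all chromosomes give the spread of such counts. Of 2634 windows of 1.10 Mb, 9.00% held at least 7 opened sites, the count of the desmosomal interval, and the median window held 3. At least 3 p63-closed sites were found in 35.8% of them. Of 2065 windows of 1.40 Mb, 33.6% held at least the 5 opened sites of the CDH2 interval and 32.9% at least its 4 p63-closed sites. Of 4158 windows of 0.700 Mb, 50.3% held at most 1 opened site and 64.6% at most 1 p63-closed site, as the CDH1 and CDH3 interval did. The opened count of the desmosomal interval was thus above that of most windows, and the other counts were reached by 32.9% of windows or more.

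**Figure D3:**
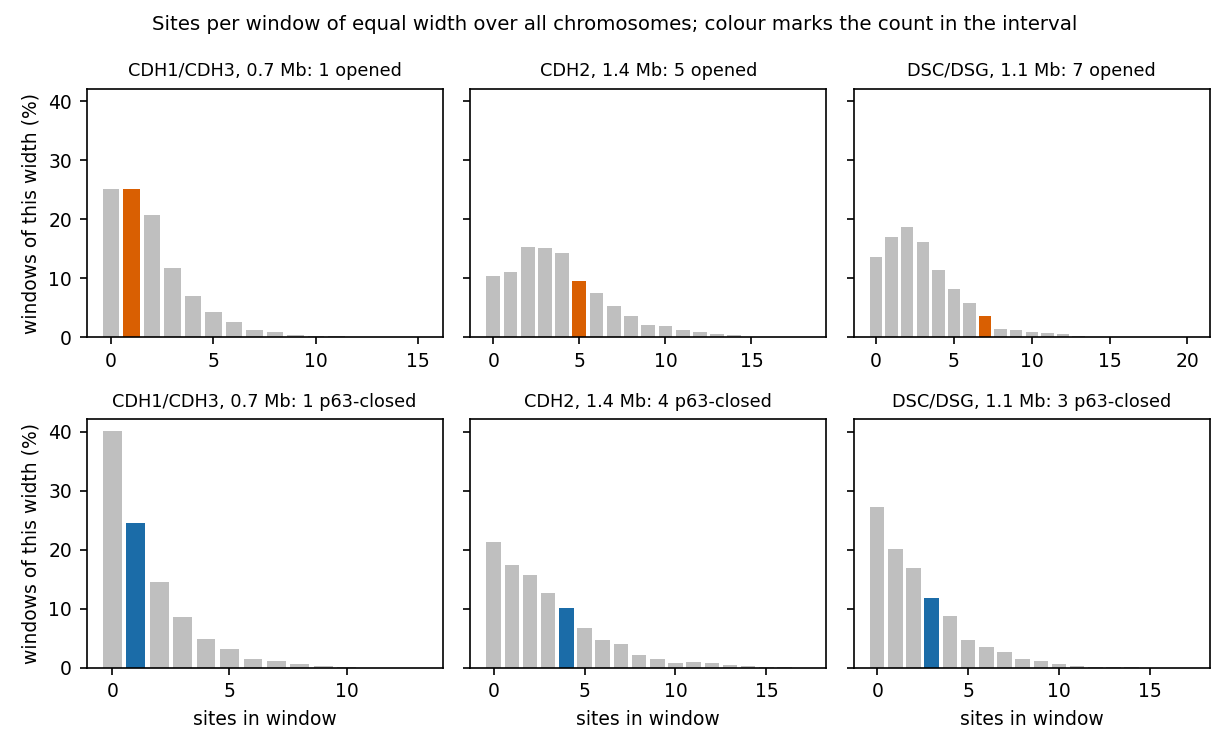
Sites per window for all windows as wide as each cadherin interval. The x axis is the number of sites in a window, the y axis the share of windows in percent, opened sites are in the upper row and p63-closed sites in the lower row, and the coloured bar marks the count of the interval itself. The 7 opened sites of the desmosomal interval lie to the right of most windows.

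The p63-closed share of listed sites was 38.1% over the 3 intervals (8 of 21; exact interval 18.1 to 61.6%), 30% in the desmosomal interval (6.67 to 65.2%), 44.4% in the CDH2 interval (13.7 to 78.8%) and 50% around CDH1 and CDH3 (1.26 to 98.7%). All 4 intervals include the 42.5% of the whole series and the 34.7% of chromosome 18. On chromosome 16, which holds CDH1 and CDH3, the share was 38.5%. The mix of the desmosomal interval was not tested against that of the CDH2 interval, and their exact intervals overlap. By their names both lists hold sites that morphogens opened, 0 sites are in both, and the sources used here do not say how a site came to be in one and not the other. The share therefore describes list membership, not 2 responses measured separately. Neighbouring sites tend to share a list, so sites are not independent and no test over them was made.

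**Figure D4:**
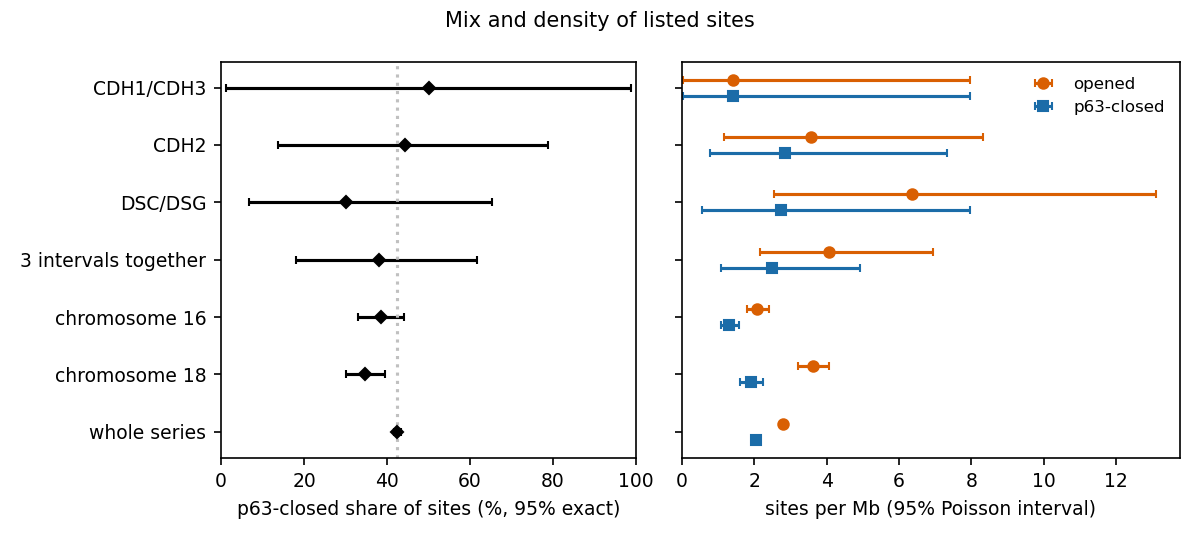
Mix and density of listed sites in the cadherin intervals, on chromosomes 16 and 18 and in the whole series. Left, the p63-closed share in percent with exact 95% intervals, and the dotted line marks the whole series; right, sites per Mb of each list with 95% Poisson intervals. The intervals of the cadherin loci are wide and include the values of the whole series.

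Most opened sites of the cadherin intervals had an opened neighbour within 50 kb, and no p63-closed site had a p63-closed one. Another opened site lay within 50 kb of 9 of the 13 opened sites (69.2%; exact interval 38.6 to 90.9%), against 40.3% in the whole list and 44.5% on chromosome 18, which holds 12 of the 13. That exact interval includes the whole-list and the chromosome 18 share. The 9 sites include both adjoining pairs, with 163 and 341 bp between their sites, and sites were not joined for distances. Apart from each other, the sites of the CDH2 pair had no opened site nearer than 78.0 kb. No p63-closed site lay within 50 kb of any of the 8 p63-closed sites (0%; exact upper limit 36.9%), against 41.8% in the whole list and 33.6% on chromosome 18, which holds 7 of the 8. The chromosome 18 share lies within that limit and the whole-list share above it. For these 8 sites the nearest p63-closed site was 161 to 2020 kb away. Distances were measured along the whole chromosome, so the ends of the intervals did not cut them. The 50 kb limit was taken from earlier results on these lists. The counts are a description, without a test, since sites in a block share their neighbours.

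Over the 3 intervals the median distance to the nearest opened site was 25.4 kb for opened sites, against 74.7 kb in the whole list. On chromosome 18 this median was 67.8 kb. For p63-closed sites the median distance to the nearest p63-closed site was 382 kb, against 74.6 kb in the whole list and 116 kb on chromosome 18. An opened site lay within 50 kb of 2 of the 8 p63-closed sites, 1 in the CDH2 and 1 in the desmosomal interval (25%; exact interval 3.19 to 65.1%), against 28.9% in the whole list. Runs as dense as the desmosomal block, with 7 opened sites in 356 kb or less, began at 240 of the 8154 opened sites (2.94%). Runs like the CDH2 block, 5 opened sites in 236 kb or less, began at 477 (5.85%). The number of sites and the length of a run were taken from the blocks themselves, and overlapping runs were each counted. The percentages therefore do not measure how rare such blocks are.

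**Figure D5:**
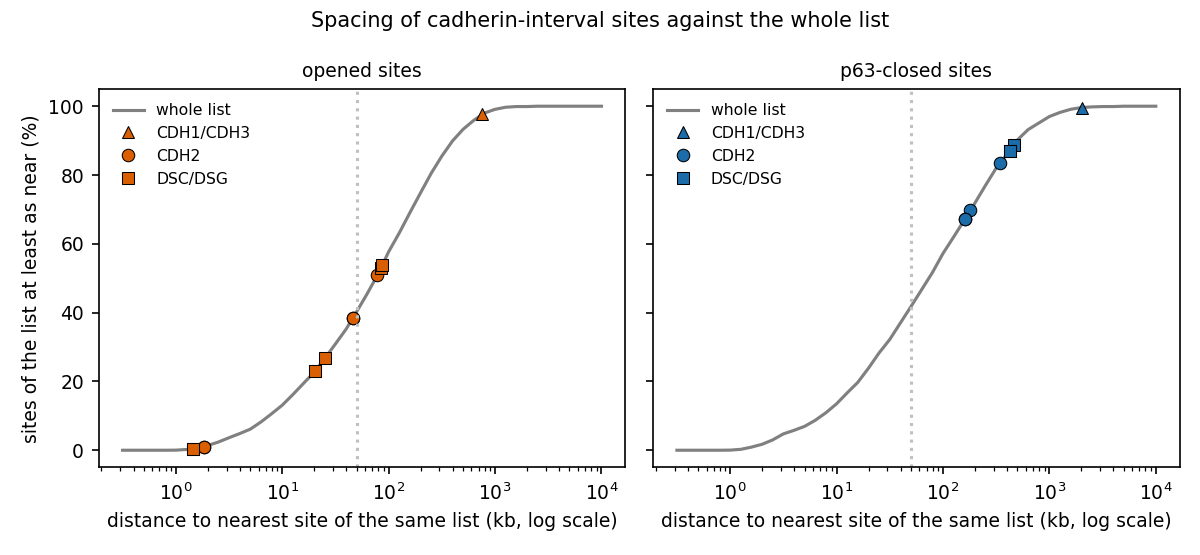
Distance from each site to the nearest site of the same list, in kb on a log scale, against the share of the whole list that has a neighbour at least as near, in percent. Symbols are sites of the cadherin intervals, the line is the whole list and the dotted line marks 50 kb. All 8 p63-closed sites lie to the right of that line, and 9 of the 13 opened sites to its left.

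Adjacent listed sites shared a list in 5 of 8 pairs in the CDH2 interval, 5 of 9 in the desmosomal interval and 0 of 1 around CDH1 and CDH3. That is 55.6% of the 18 pairs, against 61.5% over all chromosomes. The median width was 1395 bp for the 13 opened sites (885 to 2693 bp), against 1597 bp in the whole list. For the 8 p63-closed sites it was 1530 bp (1181 to 3880 bp), against 1531 bp. Together the 21 sites covered 1.09% of the length of the intervals, from 0.506% around CDH1 and CDH3 to 1.20% in the CDH2 and 1.31% in the desmosomal interval, against 0.817% over the whole series.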

How the data were processed

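The lists were made by the authors from ATAC-seq reads. Per the submitters' processing notes the builds were hg19 and GRCh37 and the tools MACS2, DESeq2, Bowtie2, SAMtools and FastQC, with no version named. What each tool did, its thresholds and whether replicates were pooled is not given in the sources used here. Each deposited list has 4 columns, the position and a numbered name, and the number is read here as an entry in a catalogue of regions. The lists have no measured value, so depth is unknown. "Opened" and "closed by p63" are the authors' own calls, which were not recomputed. In the text, positions of sites are 1-based on hg19.

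Sites were placed by their centre. The members and lists were chosen with earlier results of these data known. Densities of an interval are per Mb of its length. Those of a chromosome or the whole series are per Mb between the outermost listed sites of each chromosome (2927 Mb in all). Windows were tiled from the first base of each chromosome within those limits, assembly gaps included. Catalogue entries in an interval were interpolated between listed sites. The total for the whole series left out 6 jumps in the numbering. Intervals are Clopper-Pearson for shares and Poisson for densities. Every site of the intervals is named; no test between samples was possible. Counting was tested on simulated data. Promoters and motifs come from a RefSeq table on GRCh38.p14, matched by symbol on both strands. The work used pandas 2.3.3, scipy 1.17.1, numpy 2.4.6 and matplotlib 3.10.9 under Python 3.11.15.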

Additional observations from a re-analysis of the deposited data

How the results depend on the processing

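No paired analysis was possible because neither list has a value for any sample, so leaving out a replicate was not possible either. Of 77 alternative settings, 74 stayed within 1.5 times the count or within the counting interval, and 3 moved, all in the CDH1 and CDH3 interval. There, ends moved inward by 100 kb left 0 p63-closed sites and a p63-closed share of 0%, because its only p63-closed site lies 67.1 kb from the end. Counting the nearest listed site outside each end gave 1 neighbouring pair of the same list in place of 0. Counting intervals from 1 to 10 sites are wide, so the 74 show little about stability. Settings in which sites under 5 kb apart were joined gave 11 opened sites over the 3 intervals in place of 13, and ends moved outward by 100 kb gave 15. Per 1000 catalogue entries, the density of opened sites in the desmosomal interval was 2.09 times that of the whole list, against 2.28 times per Mb. Entries ran nearly in step with length, 751 in the 1.10 Mb of the interval and 1828056 in 2927 Mb of the series. The 2 densities could therefore hardly differ. Windows with at least 7 opened sites made up 9.00 to 10.3% under the tilings tried, one of which, windows with a listed site only, was added after the data had been seen. Sites missing from the lists are not shown to be unchanged.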
